A study of Mus musculus with 46 samples.

Results

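The nuclear-encoded subunits of mitochondrial complex I were examined in mouse intestine exposed to 2 structurally related glucose-lowering drugs, the biguanide metformin and the tetrahydrotriazine imeglimin. A fixed list of 35 Nduf symbols was matched by name to the deposited count tables, and all 35 were found in each of the 5 tables, among 45777 listed symbols. The data were 45 bulk RNA-seq libraries of intestinal tissue from male C57BL/6J mice, in 15 groups of 3. In the acute experiment, colon was taken at 6 h from controls and from mice given a single oral dose of 600 mg/kg metformin or imeglimin. In the chronic experiment, proximal, middle and distal small intestine (SI) and colon were taken after 4 weeks from controls and from mice whose drinking water held 3 mg/mL metformin or imeglimin. Age, the vehicle of the controls and any genotype beyond the strain are not stated in the labels.

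Complex I (NADH:ubiquinone oxidoreductase) is the first and largest enzyme of the respiratory chain. Its peripheral arm takes electrons from NADH in the N module and passes them along iron-sulfur clusters to ubiquinone at the Q module, and its membrane arm pumps protons. A core set of subunits does the catalysis, part of it encoded in mitochondrial DNA, and the remaining nuclear-encoded accessory subunits surround it. Metformin is known to accumulate in the intestine, and inhibition of complex I is among the actions most often attributed to it.

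The promoters of the subunit genes, 250 bases before to 50 after the annotated start, came from RefSeq (GRCm38.p6) and were matched by symbol for 32 of the 35 genes. They were searched on both strands for short letters associated with factors of mitochondrial genes. The letters AANATGGC, of the factor YY1, were in 12 of the 32 genes (37.5%), against 6.96% of the 27025 genes with such a window. The share for GCATGCGC, of NRF1, was 9.38% (3 genes) against 3.05%, and for CCGGAAG, of GABP, 12.5% (4 genes) against 9.93%. For AAGGTCA, of the estrogen-related receptors, it was 9.38% (3 genes) against 5.38%, and TGATGNAA, of ATF4, was in 0 of 32 genes against 4.51%. A match is a description of letters, not a binding site. The YY1 letters lay after the start in 7 subunit genes (21.9%, against 2.45% of all genes), and these windows of 30 bases are shown, 5′ to 3′ on the gene's strand, to let the shared letters (in capitals) be compared. The letters contain ATG, and their place relative to the start codon was not examined.

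Ndufa3, chr7:3617384-3617413, plus strand: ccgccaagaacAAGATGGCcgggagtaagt
Ndufa9, chr6:126849097-126849126, minus strand: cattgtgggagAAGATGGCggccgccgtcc
Ndufb8, chr19:44555393-44555422, minus strand: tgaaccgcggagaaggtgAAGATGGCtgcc
Ndufc1, chr3:51408915-51408944, minus strand: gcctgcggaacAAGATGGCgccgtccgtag
Ndufs4, chr13:114388045-114388074, minus strand: gcgtttgcctacaggAAGATGGCggcggtc
Ndufs6, chr13:73328433-73328462, minus strand: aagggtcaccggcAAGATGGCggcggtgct
Ndufs7, chr10:80249462-80249491, plus strand: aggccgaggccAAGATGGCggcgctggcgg

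The 250 bases before the start are shown for the gene with the largest rise in chronic colon and for the gene with the smallest change with imeglimin in chronic colon. Ndufb10 encodes an accessory subunit of the distal membrane arm, and its window held the YY1 letters on the opposite strand (capitals). Ndufa6 encodes a small LYR-motif subunit that binds the acyl carrier protein, and its window held the NRF1 letters (capitals).

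Ndufb10, chr17:24724424-24724673, minus strand: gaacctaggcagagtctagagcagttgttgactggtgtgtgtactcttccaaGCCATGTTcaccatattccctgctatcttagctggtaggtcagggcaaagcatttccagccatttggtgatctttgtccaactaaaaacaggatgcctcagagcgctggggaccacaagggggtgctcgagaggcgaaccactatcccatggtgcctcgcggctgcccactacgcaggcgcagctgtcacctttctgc
Ndufa6, chr15:82354292-82354541, minus strand: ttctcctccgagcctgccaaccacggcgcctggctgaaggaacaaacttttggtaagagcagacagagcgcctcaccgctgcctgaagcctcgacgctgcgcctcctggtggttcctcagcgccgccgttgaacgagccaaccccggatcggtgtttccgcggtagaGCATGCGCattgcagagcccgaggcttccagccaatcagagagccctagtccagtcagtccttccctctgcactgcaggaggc

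Library totals ran from 31606797 to 47324301 counts, and the subunits had between 410 (the lowest count in any library) and 10906 counts. All 35 passed the filter on low counts in every table. Levels are in CPM (counts scaled to a common library size, with TMM factors set within a table). Differences are log2 fold changes ± SE from the edgeR quasi-likelihood test with Benjamini-Hochberg adjustment over all genes of a table, and rose, fell or called means adjusted p under 0.05. The labels do not say whether replicates are separate animals, nor whether segments came from the same mice, so each p reflects only how far these libraries varied, which may be technical variation. Markers of the tissues were present: epithelial markers (12 genes) summed to 12781 to 23928 CPM over all libraries. Control library 3 of chronic colon held 23398 CPM of pancreatic markers (8 genes), against 192 to 310 CPM in the other libraries of that table. Markers of colon (5 genes) summed to 9181 to 14362 CPM in acute and 1636 to 2788 CPM in chronic colon.

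**Figure D1:**
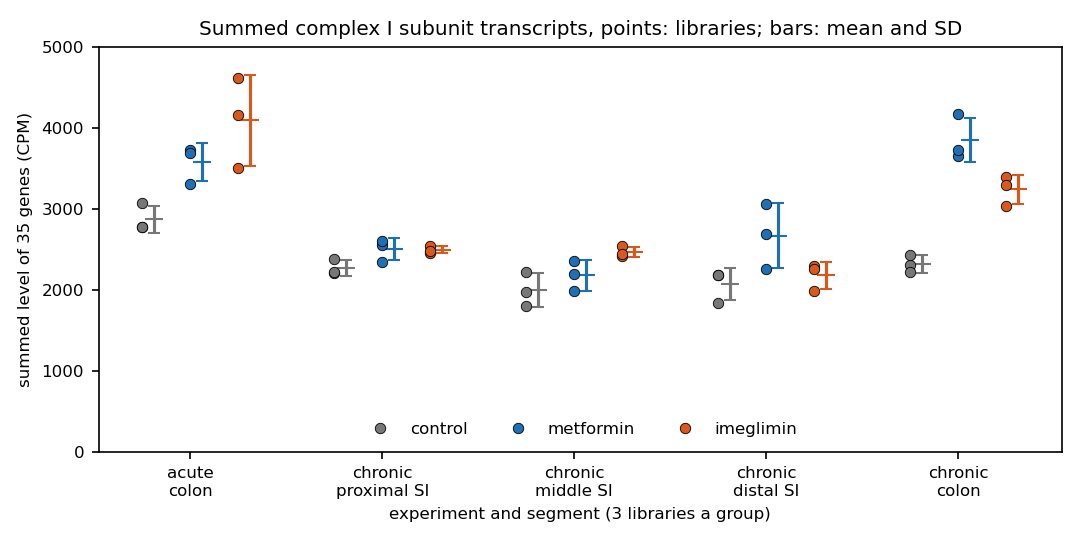
Summed level of the 35 subunit genes in CPM (vertical axis) for each library (points), by experiment, segment and group, with mean and SD of 3 libraries as bars. In chronic colon the metformin libraries lay at 3659 to 4167 CPM and the imeglimin libraries at 3035 to 3389 CPM, above the controls at 2219 to 2436 CPM.

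After 4 weeks of metformin, all 35 subunit genes rose in colon. Their median log2 fold change was 0.75, from 0.39 to 1.00, while the median of all 18665 genes tested was -0.05. Over all genes, 11.6% were called higher and 8.04% lower. The rise covered 10 of 10 genes of the N module (median 0.67), 5 of 5 of the Q module (0.84), 9 of 9 of the proximal membrane arm (0.80) and 11 of 11 of the distal membrane arm (0.74). Leaving out any 1 control or metformin library left 34 or 35 genes called, with 34 in the absence of the control library that held pancreatic transcripts. In whole tissue, more cells of a type and more RNA per cell cannot be told apart.

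After 4 weeks of imeglimin, 30 of the 35 genes rose in colon and none fell. The median log2 fold change was 0.51, from 0.10 to 0.66, against -0.02 for all genes, of which 7.97% were called higher and 5.07% lower. Called were 7 of 10 genes of the N module (median 0.49), 5 of 5 of the Q module (0.55), 9 of 9 of the proximal arm (0.50) and 9 of 11 of the distal arm (0.51). The 5 genes not called were Ndufa2, Ndufa6, Ndufa7, Ndufb5 and Ndufb11. Leaving out 1 library gave 21 to 29 genes, with 21 when that same control library was absent.

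The 6 core catalytic subunits in the list illustrate these rises. Ndufv1, which carries the flavin and the NADH site, stood at 118, 114 and 111 CPM in the 3 control libraries, 196, 213 and 196 CPM with metformin and 170, 157 and 168 CPM with imeglimin. The 3 groups did not overlap. Its log2 fold change was 0.82 ± 0.07 (adjusted p = 0.000164) with metformin and 0.53 ± 0.07 (adjusted p = 0.00336) with imeglimin. Ndufv2, its iron-sulfur partner in the N module, measured 114, 116 and 116 CPM in controls, 175, 196 and 184 CPM with metformin and 172, 166 and 182 CPM with imeglimin. Both drug groups lay above the controls and overlapped each other. The rises were 0.68 ± 0.07 and 0.59 ± 0.07 (adjusted p = 0.000313 and 0.00292). Ndufs1, the iron-sulfur subunit that relays electrons out of the N module, had 131, 136 and 128 CPM in controls, 195, 207 and 201 CPM with metformin and 184, 184 and 193 CPM with imeglimin. The rises were 0.61 ± 0.06 and 0.50 ± 0.06 (adjusted p = 0.00035 and 0.00321).

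In the Q module, Ndufs7, which holds the last iron-sulfur cluster before ubiquinone, had 45.7, 49.9 and 44.1 CPM in controls, 82.4, 98.3 and 91.8 CPM with metformin and 80.3, 63.6 and 69.8 CPM with imeglimin. The metformin libraries all lay above the imeglimin libraries, and these above the controls. Ndufs7 rose by 0.96 ± 0.10 (adjusted p = 0.000372) with metformin and by 0.61 ± 0.10 (adjusted p = 0.00659) with imeglimin. Ndufs3, a structural core subunit beside it, had 59.6, 65.4 and 58.0 CPM in controls, 101, 119 and 107 CPM with metformin and 101, 81.5 and 85.5 CPM with imeglimin. Its rises were 0.84 ± 0.10 and 0.55 ± 0.10 (adjusted p = 0.000598 and 0.00817). Ndufs8, a carrier of iron-sulfur clusters, had 50.3, 50.2 and 42.5 CPM in controls, 80.6, 92.9 and 82.6 CPM with metformin and 71.9, 58.0 and 72.2 CPM with imeglimin. The control libraries were the lowest of the 3 groups for each of these genes. For Ndufs8 the rises were 0.84 ± 0.11 and 0.50 ± 0.11 (adjusted p = 0.000889 and 0.0165).

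Among accessory subunits, Ndufb10 had the largest rise with either drug, from 121, 118 and 109 CPM in controls to 217, 263 and 218 CPM with metformin and 183, 158 and 208 CPM with imeglimin. The fold changes were 1.00 ± 0.11 (adjusted p = 0.000484) and 0.66 ± 0.11 (adjusted p = 0.00717), and the 3 groups did not overlap. Ndufc1, a small subunit of the proximal arm, had the next largest imeglimin value, 0.64 ± 0.13 (adjusted p = 0.0139), from 18.8, 24.4 and 19.3 CPM in controls to 38.1, 30.2 and 29.2 CPM. All its imeglimin libraries lay above the controls. Ndufa7, an accessory subunit of the peripheral arm, had the smallest rise with metformin, 0.39 ± 0.10 (adjusted p = 0.025), from 50.2, 56.9 and 52.8 CPM to 74.2, 70.2 and 65.7 CPM. Its imeglimin libraries, at 71.0, 57.8 and 54.2 CPM, overlapped the controls. Ndufa6 had the smallest imeglimin value, 0.10 ± 0.07 (adjusted p = 0.365), with 164, 159 and 156 CPM in controls and 172, 162 and 179 CPM with imeglimin, ranges that overlapped. With metformin it measured 216, 233 and 228 CPM, above all other libraries of the table, and rose by 0.50 ± 0.07 (adjusted p = 0.00105).

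**Figure D2:**
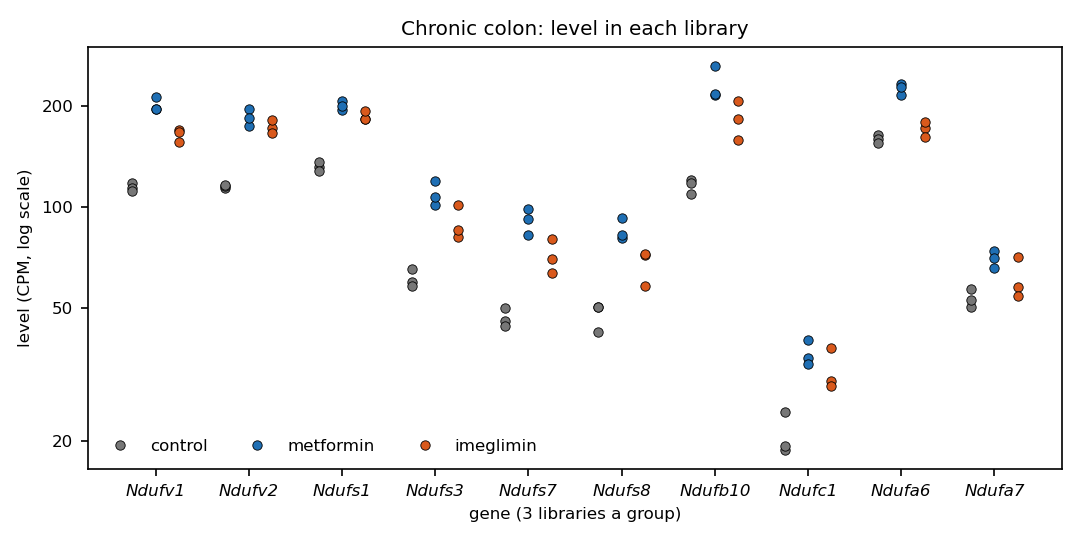
Level in CPM on a log axis for each of the 9 chronic colon libraries (points, 3 a group), for the 6 core subunits at left and 4 accessory subunits. Ndufa6 shows metformin libraries at 216 to 233 CPM, with control and imeglimin libraries overlapping at 156 to 179 CPM.

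Set directly against metformin in chronic colon, imeglimin gave lower values for all 35 genes, with a median log2 difference of -0.26 against 0.02 for all genes. At adjusted p under 0.05, 1 gene was lower, Ndufa6 (-0.40 ± 0.07, 95% interval -0.55 to -0.25, adjusted p = 0.0399), and 0 were higher, beside 0.466% and 0.145% of all genes. At an unadjusted p under 0.05 there were 20 subunit genes, beside 18.9% of all genes. The Ndufa6 call depended on the setting: with the replicate block, with the 2 groups alone or with no filter 0 genes were called, and leaving out 1 library gave 0 to 2 (2 without imeglimin library 3, 0 without any other imeglimin or metformin library). DESeq2 called 11. The next smallest p was for Ndufa11, a proximal-arm subunit with a Tim17-like fold, at 76.2, 82.6 and 73.1 CPM with metformin and 61.7, 56.9 and 62.9 CPM with imeglimin. These groups did not overlap, and the difference was -0.35 ± 0.07 (interval -0.52 to -0.19, adjusted p = 0.0649).

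Marker sums for other cell types moved with the chronic colon groups. The shares of all genes called higher and lower were 11.6% and 8.04% with metformin, and 7.97% and 5.07% with imeglimin. Smooth muscle markers (10 genes) summed to 5646 to 5885 CPM in controls, 3926 to 4410 CPM with metformin and 4254 to 5905 CPM with imeglimin, and 6 of 10 fell with metformin and 0 with imeglimin. Of 10 fibroblast markers, 8 fell with metformin and 3 with imeglimin. Of 12 epithelial markers, 7 rose with metformin and 1 with imeglimin, the latter near the share of all genes. The epithelial sums were 1.14 and 1.13 times the control mean, where the subunit sum was 1.66 and 1.40 times. No marker of these 3 lists was at 0 counts throughout a group. The 5 colon markers summed to 2556 to 2788 CPM in controls, 1962 to 2425 CPM with metformin and 1636 to 2335 CPM with imeglimin, the drug groups lying below the controls. Their part in the subunit values was not tested.

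At 6 h after a single oral dose, 13 subunit genes rose with metformin and 0 fell, where 11.3% of all genes were called higher and 8.37% lower. All 35 values were above 0, with a median log2 fold change of 0.29, from 0.14 to 0.58, against -0.04 for all genes. Called were 2 of 10 genes of the N module, 3 of 5 of the Q module, 4 of 9 of the proximal arm and 4 of 11 of the distal arm. This count rests on each library: it was 3, 8 and 2 without control 1, 2 or 3, and 2, 5 and 8 without metformin 1, 2 or 3. It was 8 with no filter and 18 with DESeq2, whose share over all genes is not given here. With the replicate block the count was 9, of which 8 were among the 13. Metformin library 2 held 1894 CPM of smooth muscle markers, against 4668 to 7368 CPM in the other acute libraries.

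Imeglimin raised 31 of 35 subunit genes at 6 h, and none fell, where 18.1% of all genes were called higher and 15.1% lower. The median log2 fold change was 0.57, from 0.07 to 0.90, against -0.03 for all genes. The calls covered 11 of 11 genes of the distal arm, 9 of 9 of the proximal arm, 4 of 5 of the Q module and 7 of 10 of the N module. Not called were Ndufv3, Ndufs1, Ndufa6 and Ndufa9. Without 1 library the count was 21 to 34, lowest without imeglimin library 2. Epithelial marker sums were 1.15 times the control mean with metformin and 1.09 times with imeglimin, and the subunit sums 1.24 and 1.42 times. Fibroblast markers were 0.833 times with metformin, which overlapped the controls, and 0.767 times with imeglimin, below every control library. The 2 ileum markers were 0.422 and 0.558 times, below the controls in every library of both drugs. Their part in the subunit values was not tested.

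The largest acute rises were in the Q module and distal arm. Ndufb6, an accessory subunit of the distal arm, had 32.0, 39.6 and 37.5 CPM in controls and 57.3, 53.7 and 52.4 CPM with metformin, a rise of 0.58 ± 0.13 (adjusted p = 0.0119). Ndufab1, the mitochondrial acyl carrier protein, had 74.6, 75.5 and 63.3 CPM in controls and 114, 112 and 88.3 CPM with metformin, a rise of 0.56 ± 0.14 (adjusted p = 0.0163). In both genes the groups were separate. Ndufa5, an accessory subunit of the Q module, had 38.9, 39.9 and 38.8 CPM in controls and 56.3, 85.8 and 77.8 CPM with imeglimin, a rise of 0.90 ± 0.15 (adjusted p = 0.00135). Ndufb10 had 105, 117 and 108 CPM in controls and 164, 212 and 221 CPM with imeglimin, a rise of 0.86 ± 0.12 (adjusted p = 0.000502). Neither gene's imeglimin libraries overlapped the controls. At the other end were Ndufv3 with metformin (0.14 ± 0.11, adjusted p = 0.386), at 80.3, 82.9 and 79.9 CPM in controls and 90.6, 98.2 and 79.5 CPM treated, and Ndufs1 with imeglimin (0.07 ± 0.11, adjusted p = 0.681). Ndufs1 had 170, 164 and 144 CPM in controls and 146, 184 and 171 CPM with imeglimin. Both pairs of ranges overlapped.

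In the direct acute comparison of the drugs, edgeR called 0 of 35 subunit genes, beside 0.645% of all genes. At an unadjusted p under 0.05 there were 14, beside 16.4% of all genes, and DESeq2 called 1. Imeglimin values were above metformin for 34 genes, with a median difference of 0.23 against 0.02 for all genes. Ndufa2, an N-module subunit with a thioredoxin-like fold, had 72.5, 66.0 and 62.5 CPM with metformin and 75.7, 110 and 91.5 CPM with imeglimin. The groups were separate, and the difference was 0.46 ± 0.14 (95% interval 0.16 to 0.77, adjusted p = 0.157). Ndufs6, a zinc-binding N-module subunit, had 73.3, 74.9 and 61.4 CPM against 76.5, 97.7 and 95.7 CPM, a difference of 0.36 ± 0.12 (interval 0.11 to 0.62, adjusted p = 0.175). Ndufs1 was the exception in direction, at -0.23 ± 0.11 (interval -0.48 to 0.02, adjusted p = 0.348).

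Because the drugs stood in opposite order in the acute and chronic colon, the difference between these differences was tested over the 18 colon libraries, a test added after the values were seen. It compares imeglimin minus metformin after 4 weeks with the same at 6 h, over tables that were counted separately, and the control libraries enter the fit and its spread but not the contrast. The value was below 0 for 34 of 35 genes, with a median of -0.48 against 0.01 for all genes. Called lower were 10 subunit genes and higher 0, beside 2.86% and 1.32% of all genes, and 29 had an unadjusted p under 0.05, beside 21.3% of all genes. They were Ndufa1, Ndufa2, Ndufa6, Ndufa11, Ndufa13, Ndufb7, Ndufb8, Ndufb9, Ndufb10 and Ndufs7. Ndufa11 had the smallest p (-0.65 ± 0.15, adjusted p = 0.0227), with 95.5, 88.3 and 79.3 CPM for metformin and 91.1, 123 and 108 CPM for imeglimin at 6 h, which overlapped, beside the separate chronic values above. Ndufa1, a single-span membrane subunit, followed (-0.70 ± 0.16, adjusted p = 0.0241), with 68.9, 61.0 and 51.0 CPM for metformin and 63.5, 87.6 and 76.7 CPM for imeglimin at 6 h. After 4 weeks Ndufa1 had 84.2, 82.7 and 76.6 CPM with metformin and 66.6, 59.9 and 63.2 CPM with imeglimin. The groups overlapped at 6 h and were separate after 4 weeks. The count was 4 with the replicate block and 4 with no filter. Without the libraries of replicate 1 the count was 10, of which 6 were among the 10 named. It was 0 without those of replicate 2 and 0 without those of replicate 3.

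**Figure D3:**
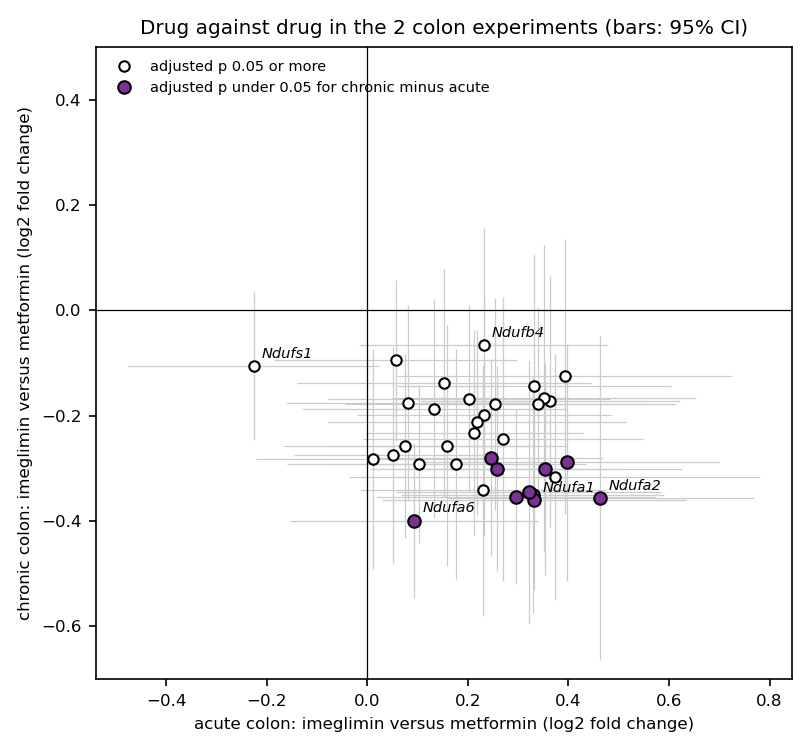
Log2 fold change of imeglimin against metformin in acute colon (horizontal) and in chronic colon (vertical) for each of the 35 genes, with 95% intervals as grey bars. Filled points are the 10 genes called for the difference between the 2 experiments, and of all 35 points only Ndufs1 lies left of 0, while all lie below 0.

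For each drug alone, chronic and acute effects differ in dose, route and time together, which cannot be told apart, and colon markers differed between the experiments as given above, whose part was not tested. The metformin effect was larger in chronic than in acute colon for 6 genes (Ndufa1, Ndufa9, Ndufa10, Ndufb8, Ndufb9 and Ndufv1) and smaller for 0, beside 3.9% and 2.32% of all genes. The median difference was 0.48. Ndufa9, an NADPH-binding Q-module subunit, had 122, 140 and 115 CPM in acute controls and 144, 150 and 140 CPM with metformin, then 93.5, 92.7 and 84.9 CPM in chronic controls and 147, 171 and 150 CPM with metformin. The groups overlapped at 6 h and were separate after 4 weeks, a difference in effect of 0.62 ± 0.13 (adjusted p = 0.0106). Ndufv1 followed with 0.59 ± 0.13 (adjusted p = 0.0154). Its acute libraries had 154, 185 and 158 CPM in controls and 203, 206 and 185 CPM with metformin. Without the libraries of any 1 replicate number, 0 genes were called.

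The imeglimin effect was larger in chronic colon for 1 gene and smaller for 0, beside 8.72% and 7.56% of all genes, and the median difference was -0.06. That gene was Ndufs1, whose effect differed by 0.46 ± 0.12 (adjusted p = 0.0178), and it was not called when any 1 replicate number was left out. The next smallest p was for Ndufa10, a proximal-arm subunit related to nucleoside kinases, at 0.30 ± 0.14 (adjusted p = 0.157). Ndufa10 had 148, 148 and 132 CPM in acute controls and 157, 201 and 187 CPM with imeglimin, then 103, 108 and 98.6 CPM in chronic controls and 157, 142 and 177 CPM with imeglimin.

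**Figure D4:**
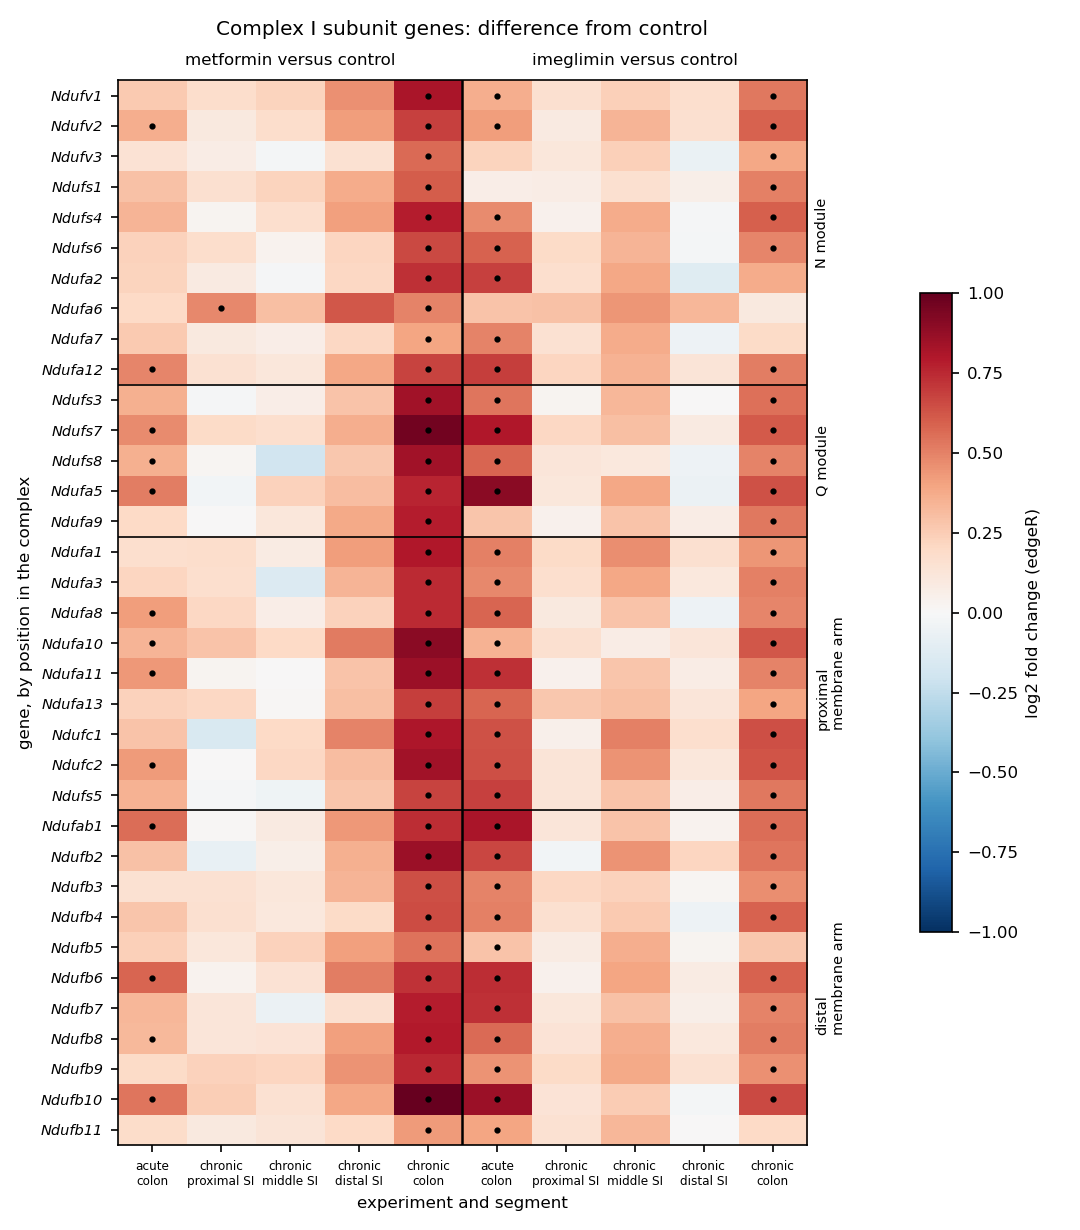
Log2 fold change from control (colour) of each of the 35 genes (rows, by position in the complex) for metformin and imeglimin in the 5 sets of tissue (columns), with a dot where the adjusted p was under 0.05. The dots number 13 and 35 for metformin in acute and chronic colon, 31 and 30 for imeglimin, and 1 in small intestine.

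In proximal SI, metformin raised 1 subunit gene, Ndufa6, and lowered 0, beside 1.65% and 2.46% of all genes. There were 11 at an unadjusted p under 0.05, beside 20.6% of all genes, and the median log2 fold change was 0.12. Ndufa6 had 98.1, 90.7 and 107 CPM in controls and 128, 137 and 148 CPM with metformin, groups that were separate, with a rise of 0.48 ± 0.08 (adjusted p = 0.0127). It was not called when metformin library 3 was left out. DESeq2 called 4 genes, given without a share of all genes. Ndufa10 was next (0.28 ± 0.08, adjusted p = 0.0701), at 118, 96.5 and 108 CPM in controls and 131, 129 and 133 CPM treated. Ndufc1 had the lowest value (-0.15 ± 0.12, adjusted p = 0.525), with overlapping ranges of 21.2 to 24.5 CPM in controls and 17.8 to 23.1 CPM treated. In the same libraries 9 of 10 smooth muscle markers fell, and their sum was 0.63 times the control mean, where the subunit sum was 1.10 times. The fibroblast sum was 0.648 times with metformin and 0.699 times with imeglimin, below every control library, and the part of these markers was not tested.

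Imeglimin called 0 subunit genes in proximal SI by edgeR, beside 1.16% of all genes, with 7 at an unadjusted p under 0.05 (17.1% of all genes). DESeq2 called 2, again without a share of all genes. The median was 0.13. Ndufa6 had the largest value (0.29 ± 0.08, adjusted p = 0.0969), at 115, 122 and 126 CPM, above every control library. Ndufa13, a proximal-arm subunit also known as GRIM-19, followed (0.27 ± 0.08, adjusted p = 0.107), from 62.0, 68.1 and 75.1 CPM in controls to 84.2, 78.7 and 84.2 CPM. Ndufb2 was lowest (-0.03 ± 0.13, adjusted p = 0.935), at 15.8 to 17.9 CPM in controls and 14.3 to 19.2 CPM treated. Between the drugs edgeR and DESeq2 called 0, beside 1.09% of all genes, and 1 had an unadjusted p under 0.05 (17% of all genes). That gene was Ndufa6 (-0.19 ± 0.08, interval -0.36 to -0.01, adjusted p = 0.26), and Ndufs5, an accessory subunit of the intermembrane space side, followed (0.14 ± 0.07, interval -0.01 to 0.28, adjusted p = 0.323). Ndufs5 had 34.6, 33.3 and 33.3 CPM with metformin and 37.3, 37.2 and 36.9 CPM with imeglimin, which did not overlap.

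In middle SI, 0 subunit genes were called by edgeR for metformin, beside 0.34% of all genes, with 4 at an unadjusted p under 0.05 (10.9% of all genes) and 0 by DESeq2. The median was 0.12. Ndufa6 was highest (0.30 ± 0.13, adjusted p = 0.43), with 75.7, 82.6 and 105 CPM in controls and 109, 114 and 100 CPM treated. Ndufb5, a distal-arm subunit, followed (0.23 ± 0.12, adjusted p = 0.546), at 41.8, 54.6 and 54.5 CPM and 59.2, 65.7 and 52.2 CPM. Ndufs8 was lowest (-0.19 ± 0.09, adjusted p = 0.501), at 50.7, 46.3 and 50.1 CPM and 46.5, 45.4 and 36.7 CPM. The groups overlapped for all 3 genes.

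Imeglimin in middle SI gave values above 0 for all 35 genes, with a median of 0.33 against -0.02 for all genes. By edgeR 0 were called, beside 0.0279% of all genes, while 27 had an unadjusted p under 0.05, beside 18% of all genes. DESeq2 called 7, but its share over all genes is not given here. Ndufc1 was highest (0.50 ± 0.17, adjusted p = 0.178), at 14.9, 18.3 and 23.6 CPM in controls and 29.1, 23.9 and 27.3 CPM with imeglimin, separate by a narrow margin. Ndufa1 followed (0.47 ± 0.17, adjusted p = 0.196), with 25.6, 30.3 and 43.3 CPM and 43.3, 50.7 and 43.3 CPM, which overlapped. Ndufa10 was lowest (0.07 ± 0.08, adjusted p = 0.67), at 99.8, 103 and 92.5 CPM and 110, 96.0 and 104 CPM. Epithelial marker sums ran from 15935 to 19443 CPM in controls and 18501 to 20933 CPM with imeglimin, and their part was not tested. Between the drugs 0 were called by either tool, beside 0% of all genes by edgeR, and 13 had an unadjusted p under 0.05 (13.2% of all genes). Ndufa3, a small proximal-arm subunit, had 34.5, 32.8 and 27.3 CPM with metformin and 47.5, 45.6 and 43.2 CPM with imeglimin (0.53 ± 0.15, interval 0.20 to 0.86, adjusted p = 0.247). Ndufs8 followed with 53.5, 51.6 and 53.3 CPM with imeglimin (0.30 ± 0.09, interval 0.09 to 0.51, adjusted p = 0.265). Both genes had separate groups.

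In distal SI it was metformin whose values lay above 0 for all 35 genes, with a median of 0.36 against -0.03 for all genes. By edgeR 0 were called, beside 0.625% of all genes, with 20 at an unadjusted p under 0.05 (16% of all genes). DESeq2 called 3, given without a share of all genes. Ndufa6 was highest (0.62 ± 0.14, adjusted p = 0.101), from 70.0, 85.7 and 86.6 CPM in controls to 102, 125 and 146 CPM. Ndufa10 followed (0.52 ± 0.13, adjusted p = 0.122), from 103, 110 and 90.9 CPM to 126, 153 and 157 CPM. Both had separate groups. Ndufv3 was lowest (0.15 ± 0.11, adjusted p = 0.578), at 43.1 to 49.2 CPM in controls and 46.0 to 55.8 CPM treated, which overlapped. The smooth muscle sum was 0.601 times and the fibroblast sum 0.621 times the control mean, below every control library. The ileum sum was 1.53 times, above every control library, and the epithelial sum 1.17 times, which overlapped. Their part was not tested.

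For imeglimin in distal SI the median was 0.06, 0 genes were called by edgeR or DESeq2, beside 0.0219% of all genes by edgeR, and 1 had an unadjusted p under 0.05 (10.3% of all genes). Ndufa6 was highest (0.33 ± 0.14, adjusted p = 0.469), at 106, 100 and 99.1 CPM, above every control library. Ndufb2 followed (0.21 ± 0.20, adjusted p = 0.76), at 12.3 to 17.6 CPM in controls and 14.0 to 19.0 CPM treated. Ndufa2 was lowest (-0.12 ± 0.18, adjusted p = 0.847), at 29.6 to 33.4 CPM and 29.0 to 29.9 CPM. The last 2 overlapped their controls. Against metformin all 35 values were below 0, with a median of -0.29. In that comparison 0 were called by either tool, beside 0.0494% of all genes by edgeR, and 10 had an unadjusted p under 0.05 (8.03% of all genes). Ndufa10 had the smallest p (-0.40 ± 0.13, interval -0.69 to -0.11, adjusted p = 0.486), at 123, 98.2 and 110 CPM with imeglimin. Ndufb10 followed (-0.41 ± 0.14, interval -0.72 to -0.09, adjusted p = 0.526), with 95.4, 119 and 136 CPM with metformin and 87.8, 84.7 and 91.2 CPM with imeglimin. Both had separate drug groups.

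Whether a drug's effect differed among the 4 chronic segments was tested over 36 libraries, from tables counted separately. For metformin 20 of 35 subunit genes were called, beside 4.03% of all genes. They were 5 of 10 in the N module, 4 of 5 in the Q module, 6 of 9 in the proximal arm and 5 of 11 in the distal arm. Ndufs8 had the smallest p (adjusted p = 0.00117), with log2 fold changes of 0.02 ± 0.11 in proximal SI, -0.19 ± 0.09 in middle SI, 0.27 ± 0.12 in distal SI and 0.84 ± 0.11 in colon. Ndufb10 followed (adjusted p = 0.00247), with 0.25 ± 0.07, 0.15 ± 0.08, 0.39 ± 0.14 and 1.00 ± 0.11. Colon had the highest value of the segments in both genes. For Ndufs8 the small-intestine libraries not yet given were 48.7, 40.0 and 53.4 CPM in proximal controls and 41.6, 51.6 and 50.8 CPM with metformin, then 57.9, 53.2 and 47.1 CPM in distal controls and 53.5, 65.5 and 72.4 CPM with metformin. The count was 13 with no filter and 5 with the replicate block. It was 4, 0 and 0 without the libraries of replicate 1, 2 or 3.

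The imeglimin effect differed among segments for 2 subunit genes, beside 2.96% of all genes. Ndufb10 (adjusted p = 0.0367) had 0.14 ± 0.07, 0.25 ± 0.08, -0.02 ± 0.14 and 0.66 ± 0.11 in proximal, middle and distal SI and colon. Ndufa10 (adjusted p = 0.047) had 0.16 ± 0.08, 0.07 ± 0.08, 0.12 ± 0.13 and 0.62 ± 0.09. The count was 0 under RLE scaling, with no filter, with the replicate block and without any 1 replicate number.

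Other genes of oxidative metabolism, from lists of known members, were compared in the same colon libraries. In chronic colon, 11.6% of all genes were called higher and 8.04% lower with metformin, and 7.97% and 5.07% with imeglimin. Between the drugs, 0.145% were higher and 0.466% lower with imeglimin. Of 37 subunits of complexes II to V, 37 rose with chronic metformin (median 0.72) and 34 with chronic imeglimin (0.48), with 0 called between the drugs. Uqcrq, a complex III subunit, had the smallest p, at 1.45 ± 0.09 (adjusted p = 7.2e-05) and 0.96 ± 0.09 (adjusted p = 0.00233). Of 11 genes of the tricarboxylic acid cycle, 10 rose with metformin (median 0.57) and 9 with imeglimin (0.47). Complex I assembly factors, which build the enzyme but leave it, rose in 5 and 3 of 17, with Ecsit at 0.72 ± 0.12 and 0.57 ± 0.12. Of 9 regulators of mitochondrial gene expression, 2 rose and 1 fell with metformin, and 2 rose and 2 fell with imeglimin. In this list Esrra, the estrogen-related receptor alpha, rose by 0.65 ± 0.09 (adjusted p = 0.00102) with metformin and by 0.32 ± 0.09 (adjusted p = 0.0375) with imeglimin. Yy1 fell by 0.30 ± 0.07 (adjusted p = 0.0131) with metformin and by 0.43 ± 0.07 (adjusted p = 0.00561) with imeglimin.

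At 6 h, complexes II to V had 8 of 37 genes called higher with metformin and 34 with imeglimin. Over all genes, 11.3% were called higher and 8.37% lower with metformin, and 18.1% and 15.1% with imeglimin. Assembly factors had 7 and 9 of 17 higher, with 0 and 2 lower. The tricarboxylic acid cycle had 6 and 4 of 11 higher and 0 lower, and the regulators 4 and 5 of 9 higher and 0 lower. Pprc1, a coactivator of the PGC-1 family, rose by 1.01 ± 0.13 with metformin and by 0.94 ± 0.13 with imeglimin, and Ppargc1b, Esrra and Nrf1 also rose with both drugs. Ndufaf4, an assembly factor of the Q module, rose by 1.28 ± 0.10 with metformin and 1.18 ± 0.10 with imeglimin.

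The 7 complex I subunits encoded in mitochondrial DNA rose in part with imeglimin in chronic colon, and had list medians below 0 in the other 3 colon comparisons with controls. These transcripts were read in libraries made with a kit that selects polyadenylated RNA. At 6 h none of the 7 rose, and 2 fell with metformin and 4 with imeglimin, beside 8.37% and 15.1% of all genes. The list medians were -0.25 and -0.35, where the nuclear medians were 0.29 and 0.57. ND5, a proton-pumping core subunit, fell by 0.50 ± 0.14 (adjusted p = 0.0289) with metformin and by 1.28 ± 0.14 (adjusted p = 0.00014) with imeglimin. In chronic colon metformin raised 1 of 7 and imeglimin raised 5 of 7, where 11.6% and 7.97% of all genes were called higher. The list medians were -0.04 and 0.39, beside nuclear medians of 0.75 and 0.51. ND6, a membrane-arm core subunit, had the smallest p with either drug and rose by 0.30 with metformin and 0.62 with imeglimin. The summed level of the 7 was 13596 to 16900 CPM in controls, 14176 to 14752 CPM with metformin and 18723 to 20526 CPM with imeglimin. The imeglimin libraries were thus above all others, while metformin overlapped the controls. Between the drugs in chronic colon 2 of the 7 were higher with imeglimin, beside 0.145% of all genes. They were ND1 (0.65 ± 0.09, adjusted p = 0.0222) and ND4L (0.40 ± 0.07, adjusted p = 0.0499). At 6 h ND5 was lower with imeglimin than with metformin (-0.77 ± 0.14, adjusted p = 0.0446), and no other of the 7 was called. The share of all genes called there, in either direction, was 0.645%.

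**Figure D5:**
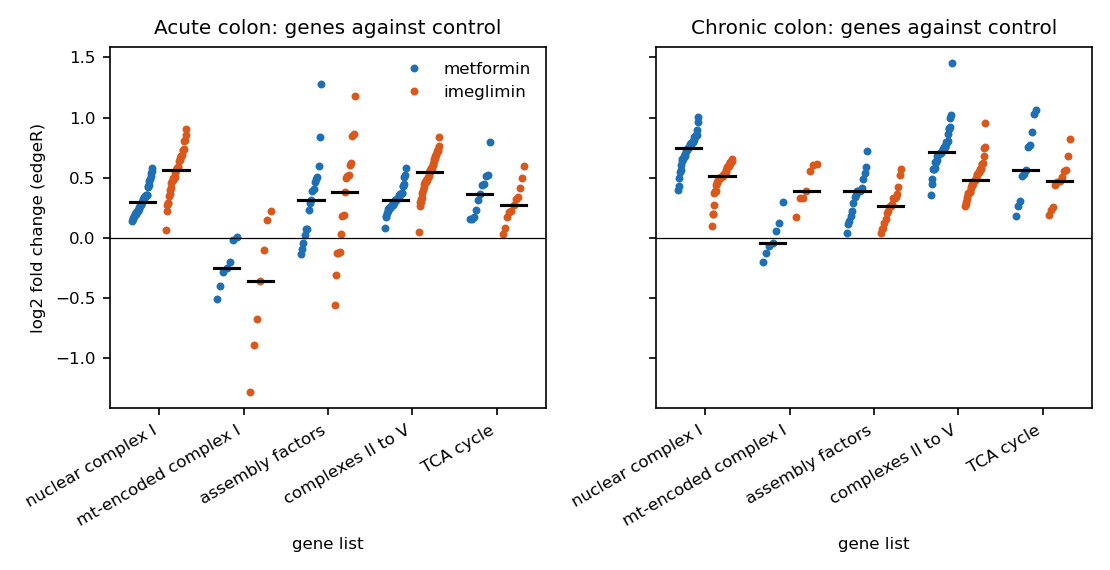
Log2 fold change from control of single genes (points) with the list median (black bar), in acute and chronic colon, for metformin and imeglimin. The nuclear complex I genes have medians of 0.29 and 0.57 at 6 h and 0.75 and 0.51 after 4 weeks, and the mitochondrially encoded ones -0.25, -0.35, -0.04 and 0.39.

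In untreated mice the summed subunit level was highest in proximal SI, at 2558, 2586 and 2780 CPM on a scale shared by the 4 chronic tables. It was 1938, 2134 and 2427 CPM in middle SI, 2070, 2082 and 1746 CPM in distal SI and 1892, 1998 and 1814 CPM in colon. Proximal SI did not overlap the other segments, and each of the remaining neighbours in this order overlapped. From proximal to middle SI, 9 genes were lower and 0 higher, beside 4.37% and 2.33% of all genes. Ndufv1 had the smallest p (-0.41 ± 0.10, adjusted p = 0.00734), at 172, 152 and 180 CPM in proximal and 115, 120 and 143 CPM in middle SI. Ndufb3, a distal-arm subunit, followed (-0.38 ± 0.10, adjusted p = 0.0159), at 71.0, 75.8 and 70.5 CPM and 51.9, 48.8 and 66.9 CPM. Both genes were separate between the segments. The count was 3 with no filter, and 0, 0 and 5 without replicate 1, 2 or 3.

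From middle to distal SI 1 gene was lower, Ndufb3 (-0.39 ± 0.10, adjusted p = 0.00803), and 0 were higher, beside 6.65% and 3.32% of all genes. Ndufb3 had 44.4, 43.1 and 40.3 CPM in distal SI, below every middle SI library. It was not called without replicate 2 or 3, and 2 genes were called with the replicate number as a block. The next smallest p was for Ndufv1 (-0.28 ± 0.10, adjusted p = 0.059), at 108, 111 and 92.9 CPM in distal SI, below every middle SI library.

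From distal SI to colon, 2 subunit genes were higher and 7 lower, beside 21.4% and 23.6% of all genes. Ndufa6 (0.77 ± 0.11, adjusted p = 2.14e-06) had 66.3, 81.8 and 82.2 CPM in distal SI and 134, 131 and 127 CPM in colon, and Ndufa7 (0.45 ± 0.13, adjusted p = 0.00443) had 32.8, 33.9 and 29.0 CPM and 41.2, 46.6 and 43.2 CPM. Both were higher in every colon library. Ndufb7, a distal-arm subunit with a twin cysteine motif, was lowest (-0.56 ± 0.13, adjusted p = 0.000613), from 64.0, 62.9 and 52.1 CPM to 37.0, 44.8 and 39.8 CPM. The other genes called lower were Ndufa2, Ndufa11, Ndufb3, Ndufs4, Ndufs6 and Ndufs8. The total of 9 was 3 without replicate 1, 4 without replicate 2 and 7 without replicate 3. Replicate 3 includes the control colon library that held pancreatic transcripts. With no filter, 6 of the 9 stayed called.

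Per kilobase of transcript, in control colon of the chronic experiment, the subunits spanned a 16.2-fold range of mean levels around a median of 50.1 CPM per kilobase. Ndufa6 was highest at 228, 221 and 216 CPM per kilobase, followed by Ndufb9 at 166, 172 and 150 and Ndufb8 at 155, 175 and 152, which overlapped each other. Ndufc1 was lowest at 12.4, 16.0 and 12.6 CPM per kilobase, below Ndufs4 at 24.0, 25.8 and 21.7. In proximal SI the median was 73.4 CPM per kilobase and Ndufa6 came after Ndufb9 and Ndufb8. Levels depend on the transcript chosen for the length, here 1 annotated principal transcript a gene.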

How the data were processed

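The values are raw counts of reads for each gene symbol, as the authors deposited them in 5 tables with 9 libraries each, and all columns were mapped by their titles (0 columns were left without a sample). Libraries were made with a TruSeq Stranded mRNA kit from RNeasy-purified RNA, per the labels' protocols. Per the submitters' processing notes, the tools included HISAT2, StringTie, Trimmomatic and FastQC, and the builds mm10 and GRCm39 are listed without roles. No source states whether strand was used in counting. In GENCODE M21, 14 of the 35 genes share exon bases with another gene, 12 of them with one on the opposite strand. Ndufb2, Ndufb8 and Ndufb9 share exon bases with a gene on the same strand. Ndufab1, Ndufs5, Ndufs6, Ndufb4 and Ndufa11 have related copies in the tables. Reads of all these genes may be split or shared. The single-cell sample was not used, because its label lists every treatment.

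Counts were tested with edgeR 4.0.16 in R 4.3.3: TMM scaling, filterByExpr, the 9 libraries of a table in 1 fit, quasi-likelihood F tests, Benjamini-Hochberg adjustment over all genes tested, and a threshold of 0.05. Differences between segments used 36 libraries and between colon experiments 18. Alternatives were RLE scaling, DESeq2 1.42.0, no filter, the 2 groups alone, a replicate block and leaving out libraries. Shares of all genes are those of the main edgeR fit, and none is given for an alternative. The code was tested on simulated data. Members, lists and tests were chosen with earlier results of these data known. Per-library values are given for the 2 largest and the smallest fold change of each drug comparison, the 6 core subunits in chronic colon and the 2 smallest p elsewhere. In pathway lists the gene of smallest p in chronic colon was named, except 1 that is not reported here, and the genes named beyond it (Ndufaf4, the regulators at 6 h, ND5, ND1 and ND4L) were chosen after their values were seen.

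The labels give each library a batch equal to its replicate number, and by it the numbers pair the libraries. After subtracting group means, libraries sharing a number had an average correlation of 0.0687 (chronic colon), -0.132 (distal SI), -0.100 (middle SI), 0.00548 (proximal SI) and -0.00563 (acute colon). Each batch holds 1 library a group, too few for values within it. Replicates differed beyond sampling noise (chi-square per gene of at least 13.0). Lengths came from the principal GENCODE M21 transcript with the best support, the shortest where tied, and promoters from RefSeq.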

Additional observations from a re-analysis of the deposited data

Results flagged for a closer look

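Each of these results is a difference between effects with at least 1 subunit gene past its own interaction test. The metformin effect differed among the 4 chronic segments for 20 subunit genes, beside 4.03% of all genes. The imeglimin effect did so for 2, beside 2.96% of all genes, and for 0 under RLE scaling, with no filter, with the replicate block and without any 1 replicate number. The metformin effect was larger in chronic than in acute colon for 6 genes, beside 3.9% of all genes. The imeglimin effect was larger for 1 gene, Ndufs1, where 8.72% of all genes were called higher, so that the members' share was not above that of all genes. Imeglimin minus metformin was lower in chronic than in acute colon for 10 genes, beside 2.86% of all genes. That last test was added after the values were seen. No explanation was tested, and every one of these counts fell when the libraries of replicate 2 or of replicate 3 were left out.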

How the results depend on the processing

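No gene called in the main tests changed direction in any alternative that called it. This could not be checked for the 2 tests among segments, which give no single direction. Of 213 alternative counts 161 were taken as unchanged: within 1.5 times the reported one, or at most 1 where that was 0. They include comparisons with 0 genes called that stayed at 0, so this total does not measure how stable the calls were. With no filter, 8 genes were called for metformin in acute colon, 0 between the drugs in chronic colon, 13 and 0 for the metformin and imeglimin effects among segments, 3 from proximal to middle SI and 4 for the drug difference between colon experiments. DESeq2 called 4 and 2 for metformin and imeglimin in proximal SI, 7 for imeglimin in middle SI, 3 for metformin in distal SI and 11 between the drugs in chronic colon. Without its shares over all genes, these DESeq2 counts cannot be set against a background. RLE scaling gave 0 for the imeglimin effect among segments, and the 2 groups alone gave 0 between the drugs in chronic colon. With the replicate block (paired by batch), 0 were called between the drugs in chronic colon, 5 and 0 for the metformin and imeglimin effects among segments, 4 for the drug difference between colon experiments and 2 from middle to distal SI, and no other count moved by more than 1.5 times. A block nested in the table could not be fitted beside contrasts between tables, so the replicate number alone was used for untreated segments, an alternative added after seeing the data. Leaving out libraries gave 2 to 8 genes for metformin in acute colon, 0 to 1 in proximal SI, 0 to 2 between the drugs in chronic colon, 0 to 4 and 0 to 0 for the metformin and imeglimin effects among segments, 0 to 0 for each drug's chronic minus acute effect and 0 to 10 for the drug difference. For untreated tissue the ranges were 0 to 5, 0 to 1 and 3 to 7. The causes of these changes were not tested. Depth was at least 410 counts a gene in every library, and 3 libraries a group limit the precision.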
